A study of Mus musculus with 4 samples.

Results

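The mTORC1 translational control genes described here were 10 genes found by symbol in a table of 14984 genes: Mtor and Rptor (the kinase and its scaffold), Tsc1, Tsc2 and Rheb (the switch that turns the kinase on), Ddit4 (an inhibitor of that switch), and Rps6kb1, Rps6kb2, Eif4ebp1 and Eif4ebp2 (the substrates that act on translation). All 10 were present, and all 10 passed the filter on low reads that left 12095 genes for testing. The values came from ribosome profiling of whole mouse testes at day 10, in which the mRNA pieces covered by ribosomes are sequenced and counted for each gene. A set of 2 libraries came from Eif5 cKO testes, in which floxed Eif5 alleles (Eif5 fl/fl) were combined with a Stra8-Cre transgene that is active in germ cells. The other 2 libraries came from control testes, whose alleles and transgenes the labels do not state. Somatic cells of the Eif5 cKO testis should keep Eif5, which values of whole testis cannot show. Nothing in the labels ties the libraries to different mice, and the p-values below may therefore reflect technical variation alone.

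mTORC1 is a protein kinase complex that senses amino acids, energy and growth factors and raises protein synthesis. GTP-bound Rheb activates the kinase at the lysosome, the Tsc1-Tsc2 complex keeps Rheb inactive, and Ddit4 (also called REDD1) acts through Tsc2 to lower mTORC1 activity under stress. The active kinase phosphorylates the S6 kinases, and it also phosphorylates the 4E-BP proteins, which then release the cap-binding factor eIF4E. In the testis, mTORC1 signalling is known for its part in the differentiation of spermatogonia. The kinase acts by phosphorylation, which ribosome footprints do not measure, so the values below describe how many footprints lay on these mRNAs and not how active the pathway was.

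Libraries held 2296938 and 2782527 reads in Eif5 cKO and 2934609 and 2225964 reads in control. The 10 genes together took 0.0733% and 0.0743% of reads in Eif5 cKO and 0.0882% and 0.0827% in control. Eif5 had normalized values of 173 and 266 in Eif5 cKO, against 365 and 304 in control (log2 fold change -0.63, SE 0.25, limma adjusted p = 0.319). Eif5 cKO replicates 1 and 2 correlated with each other at 0.920 across genes, while Eif5 cKO replicate 2 correlated with control replicates 1 and 2 at 0.930 and 0.923. Eif5 cKO replicate 2 therefore stood no closer to its own group than to the controls. Eif5 cKO replicate 1 correlated with control replicates 1 and 2 at 0.911 and 0.910, the lowest values of any pair. The controls correlated with each other at 0.944. A normalized value is the number of reads divided by the size factor of the library, and it can be compared between libraries for a given gene. No coding lengths were used here, so levels were not compared between genes.

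None of the 10 genes passed the test. limma with Benjamini-Hochberg adjustment over all genes called 0 of 10, against a background of 0.678% of genes tested (0.604% lower and 0.0744% higher). The count was also 0 by edgeR, by DESeq2 and by limma-voom. At an unadjusted p under 0.05, Mtor and Tsc1 were lower in Eif5 cKO, 2 of 10 genes against a background of 10.6% (6.31% lower and 4.32% higher). The median log2 fold change was -0.02 over the 10 genes and 0.003 over all genes tested, and the median size of the difference, without its sign, was 0.32 and 0.30 in these sets. An exact permutation of 2 samples against 2 can reach a two-sided p of 0.33 at best, and the calls depended on the variance that limma pools over genes.

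In 9 of the 10 genes the Eif5 cKO values lay wholly outside the control values, against a background of 40.8%. Of these genes 5 lay below the controls (Mtor, Tsc1, Tsc2, Rheb and Rps6kb2; background 20.9%) and 4 lay above (Rptor, Rps6kb1, Eif4ebp2 and Ddit4; background 20%). The space between the groups was small for most of them. It was 0.13% of the control mean for Rheb, 4.40% for Rptor, 6.39% for Eif4ebp2, 7.86% for Tsc2, 9.40% for Ddit4, 16.4% for Rps6kb2, 18.1% for Tsc1, 29.0% for Mtor and 30.5% for Rps6kb1. When the libraries were scaled on the Sertoli cell list the count was 5, all of them below the controls, against a background on that scale of 41.9% (39.1% below and 2.82% above).

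**Figure D1:**
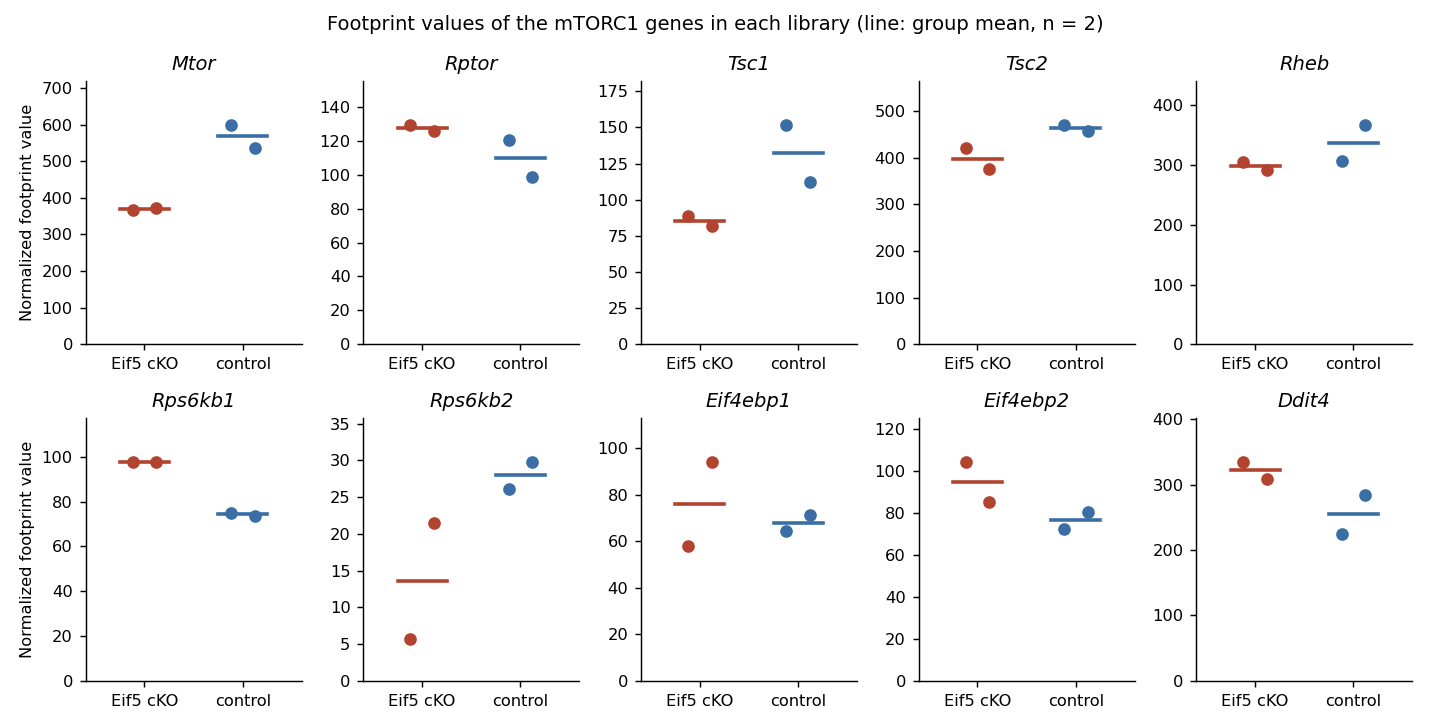
Normalized footprint values (linear axis from 0) of the 10 genes in each library, with 1 panel a gene, Eif5 cKO libraries in red on the left, control libraries in blue on the right and a line at each group mean (n = 2). Eif4ebp1 is the gene whose groups overlap, Mtor and Rps6kb1 have the widest space between groups relative to the control mean, and Rps6kb2 has 1 Eif5 cKO library at 5.68.

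Mtor encodes the kinase itself (chr4:148448582-148557685, GRCm38). Its values were 367 and 372 in Eif5 cKO, against 599 and 537 in control. The Eif5 cKO libraries were nearly equal and both were clearly below the controls. Mtor had a log2 fold change of -0.62 (SE 0.23, 95% interval -1.07 to -0.16), which is 0.652 times the control level, and the limma adjusted p was 0.267. Mtor had the smallest p of the 10 genes (0.00958 unadjusted) and did not pass over all genes.

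Rptor encodes raptor, the scaffold that brings substrates to the kinase (chr11:119602905-119899591). Values of 130 and 126 were found in Eif5 cKO, against 121 and 98.7 in control. The higher control library came close to the Eif5 cKO libraries. For Rptor the fitted log2 fold change was 0.22 (SE 0.29, interval at 95% from -0.36 to 0.81, limma adjusted p = 0.844).

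Rheb, the small GTPase that activates mTORC1 (chr5:24802823-24842361), had values of 306 and 292 in Eif5 cKO, against 306 and 367 in control. Eif5 cKO replicate 1 and control replicate 1 were within 0.437 of each other, less than the value of 1 read in any library. A log2 fold change of -0.16 was fitted (SE 0.24, 95% interval -0.64 to 0.31, limma adjusted p = 0.857).

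The subunits of the complex that restrains Rheb were both lower in the Eif5 cKO libraries, and neither passed. Tsc1, which encodes hamartin, the subunit that stabilizes the complex (chr2:28640993-28691172), had values of 88.6 and 81.6 in Eif5 cKO, against 152 and 112 in control. The controls differed from each other more than the Eif5 cKO libraries did, by 0.43 against 0.12 on the log2 scale. For Tsc1 a log2 fold change of -0.61 was fitted (SE 0.30, 95% interval -1.23 to -0.002, limma adjusted p = 0.468). Tsc2, which encodes tuberin, the GTPase-activating subunit (chr17:24595816-24632676), had values of 421 and 376 in Eif5 cKO, against 471 and 458 in control. For Tsc2 it was -0.22 (SE 0.23, 95% interval -0.68 to 0.24, limma adjusted p = 0.784).

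Ddit4, the stress-induced inhibitor that acts through this complex (chr10:59949675-59951770), had values of 335 and 309 in Eif5 cKO, against 225 and 285 in control. Every Eif5 cKO value was above every control value, with the nearest pair, Eif5 cKO replicate 2 and control replicate 2, only 24.0 apart. A log2 fold change of 0.34 was fitted (SE 0.24, 95% interval -0.14 to 0.83, limma adjusted p = 0.653). The upper end of that interval corresponds to 1.78 times the control level.

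Rps6kb1 encodes S6 kinase 1, which phosphorylates ribosomal protein S6 and several initiation and elongation regulators (chr11:86498869-86544885). Its values were 97.7 and 97.8 in Eif5 cKO, against 75.1 and 73.5 in control. Replicates differed by 0.0014 in Eif5 cKO and 0.031 in control on the log2 scale, on 64 to 109 reads a library. A log2 fold change of 0.39 was fitted (SE 0.32, 95% interval -0.26 to 1.04, limma adjusted p = 0.715), because limma sets the error from genes of like level as well as from these 4 values.

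Its paralog Rps6kb2, which encodes S6 kinase 2 (chr19:4156792-4163383), was the most sparsely covered member. It had 5 and 24 reads in Eif5 cKO and 32 and 26 reads in control, or values of 5.68 and 21.5 in Eif5 cKO, against 26.1 and 29.8 in control. Eif5 cKO replicate 1 was far below the other libraries, and Eif5 cKO replicate 2 was just under the lower control. A count of 5 reads has an exact Poisson 95% interval of 1.62 to 11.7 reads, which covers counting error only. A log2 fold change of -1.24 was fitted (SE 0.67, 95% interval -2.59 to 0.12, limma adjusted p = 0.530). Without Eif5 cKO replicate 1 it was -0.36, and without Eif5 cKO replicate 2 it was -2.11 (limma adjusted p = 0.897 and 0.0939, within a range of 0.0939 to 0.925 over the alternatives that gave one).

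Eif4ebp1 encodes 4E-BP1, a repressor that binds eIF4E until mTORC1 phosphorylates it (chr8:27260327-27275656). Values were 57.9 and 94.2 in Eif5 cKO, against 64.5 and 71.2 in control. The Eif5 cKO libraries lay on either side of the controls. A log2 fold change of 0.12 was fitted (SE 0.35, 95% interval -0.59 to 0.84, limma adjusted p = 0.939), and without Eif5 cKO replicate 2 it was -0.22. Eif4ebp2, which encodes the related repressor 4E-BP2 (chr10:61428491-61452790), had values of 105 and 85.2 in Eif5 cKO, against 72.6 and 80.3 in control. Its groups did not overlap, with a log2 fold change of 0.30 (SE 0.32, 95% interval -0.35 to 0.95, limma adjusted p = 0.797).

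Without Eif5 cKO replicate 2, the library that stood as close to the controls as to its own group, only 1 Eif5 cKO library remained. A fit with 1 library in a group assumes that this library varies as the other group does. In this fit it was Eif5 cKO replicate 1, the library least correlated with the controls. The log2 fold changes were then -0.63 for Mtor, -0.56 for Tsc1, -0.14 for Tsc2, -0.13 for Rheb, 0.24 for Rptor, 0.39 for Rps6kb1, 0.45 for Eif4ebp2 and 0.40 for Ddit4. Eif4ebp2 was at 0.16 and Eif4ebp1 at 0.47 without Eif5 cKO replicate 1. Several members also depended on a single control. Without control replicate 1, the value was 0.37 for Rptor, -0.30 for Rheb, 0.18 for Ddit4, -0.40 for Tsc1 and 0.054 for Eif4ebp1. Without control replicate 2, it was 0.078 for Rptor, -0.034 for Rheb, 0.51 for Ddit4, -0.83 for Tsc1 and 0.19 for Eif4ebp1.

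**Figure D2:**
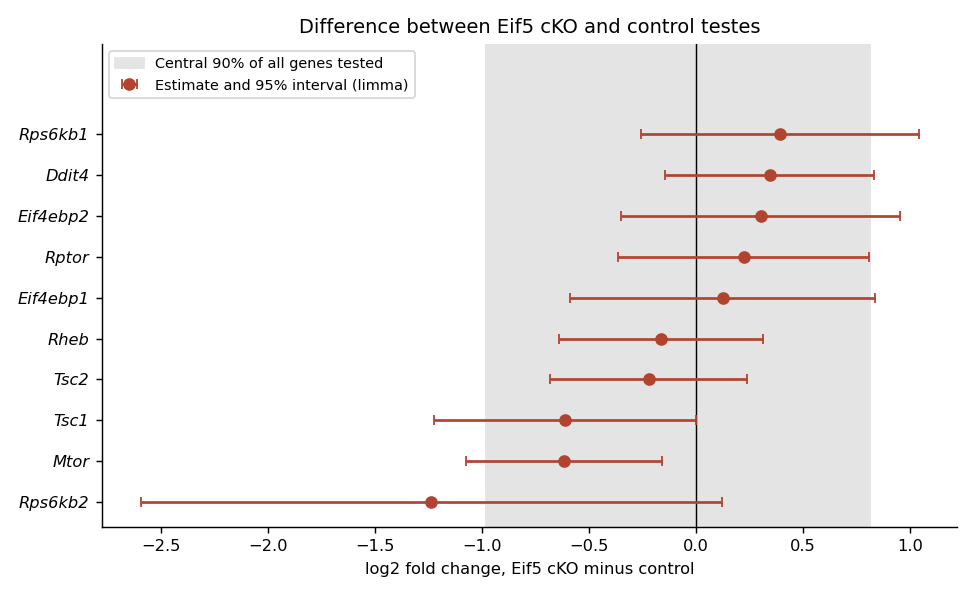
Estimated log2 fold change of Eif5 cKO minus control (horizontal axis) for each gene, with its 95% interval from limma and a grey band for the central 90% of all genes tested (-0.98 to 0.81). The intervals of 8 genes include 0, those of Mtor and Tsc1 do not, and the estimate of Rps6kb2 is the only one outside the band.

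Partner genes were also compared as ratios within a library, in which gene length and library scaling cancel between groups. The log2 differences given for them were taken with 1 added to each value, so that scaling cancels only nearly, least so for low values. Rptor over Mtor was 0.353 and 0.337 in Eif5 cKO, against 0.202 and 0.184 in control. The log2 ratio was higher in Eif5 cKO by 0.84, while replicates differed by 0.06 in Eif5 cKO and 0.13 in control. Tsc1 over Tsc2 was 0.210 and 0.217 in Eif5 cKO, against 0.322 and 0.246 in control. That difference, -0.39 on the log2 scale, was as large as the gap of 0.39 between the controls.

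For the effector pairs the ratios were less steady. Rps6kb1 over Rps6kb2 was 17.2 and 4.54 in Eif5 cKO, against 2.88 and 2.46 in control, where the value of 17.2 rests on the 5 reads of Rps6kb2 named above. The log2 difference was 1.63 with 1 added to each value and 1.73 with nothing added. With 1 added it was 0.75 without Eif5 cKO replicate 1. Eif4ebp1 over Eif4ebp2 was 0.554 and 1.11 in Eif5 cKO, against 0.888 and 0.886 in control, so that the Eif5 cKO libraries lay on either side of nearly equal controls. Ratios were given without a test, since the exact permutation test has the same limit of 0.33 here, and the pairs were set out with earlier results of these data known.

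**Figure D3:**
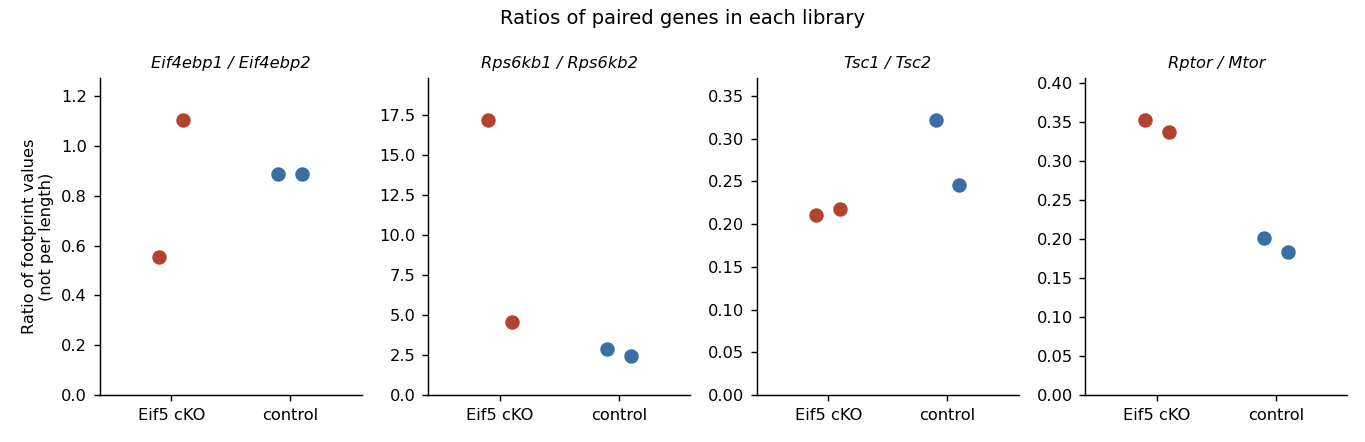
Ratio of normalized footprint values within each library (linear axis from 0, not per length) for the 4 gene pairs, Eif5 cKO in red on the left and control in blue on the right, with 1 point a library. Rptor over Mtor is 0.337 to 0.353 in Eif5 cKO and 0.184 to 0.202 in control, and the Eif5 cKO libraries are far apart for Eif4ebp1 over Eif4ebp2 and for Rps6kb1 over Rps6kb2.

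In footprints of whole testis, fewer cells of a type, less mRNA per cell and fewer ribosomes per mRNA cannot be told apart. No mRNA libraries were used beside the footprints. Of 10 pan-germ-cell markers, 4 fell in Eif5 cKO, and the list took 0.0816% and 0.0983% of reads in Eif5 cKO, against 0.210% and 0.185% in control. Of 12 tested meiotic prophase markers 9 fell, and the list took 0.0498% and 0.0614% of reads in Eif5 cKO, against 0.164% and 0.140% in control. Among 14 Sertoli cell markers 1 rose, with shares of 3.70% and 2.73% in Eif5 cKO and 2.07% and 2.73% in control, and of 7 Leydig cell markers 0 passed, with shares of 0.114% and 0.104% in Eif5 cKO and 0.0661% and 0.0792% in control. Without Eif5 cKO replicate 1 or 2, or control replicate 1 or 2, the counts that fell were 2, 5, 2 and 2 for the pan-germ-cell list and 7, 10, 0 and 3 for the meiotic list. In the same order 0, 3, 0 and 0 Sertoli cell markers and 1, 3, 0 and 0 Leydig cell markers rose. The count of calls over all genes also changed with the library left out. Of 8 macrophage, 5 peritubular myoid, 5 endothelial and 4 erythroid markers, 0 passed in limma. Each marker of the germ, Sertoli and Leydig cell lists had reads in at least 1 library. The part of these shifts in the values of Mtor, Tsc1 or any other member was not tested.

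Scaling on the Sertoli cell list moved the median of all genes tested to -0.45. On that scale Rptor, Rps6kb1, Eif4ebp1, Eif4ebp2 and Ddit4 had negative log2 fold changes. A scaling moves all genes by about the same amount by construction.

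**Figure D4:**
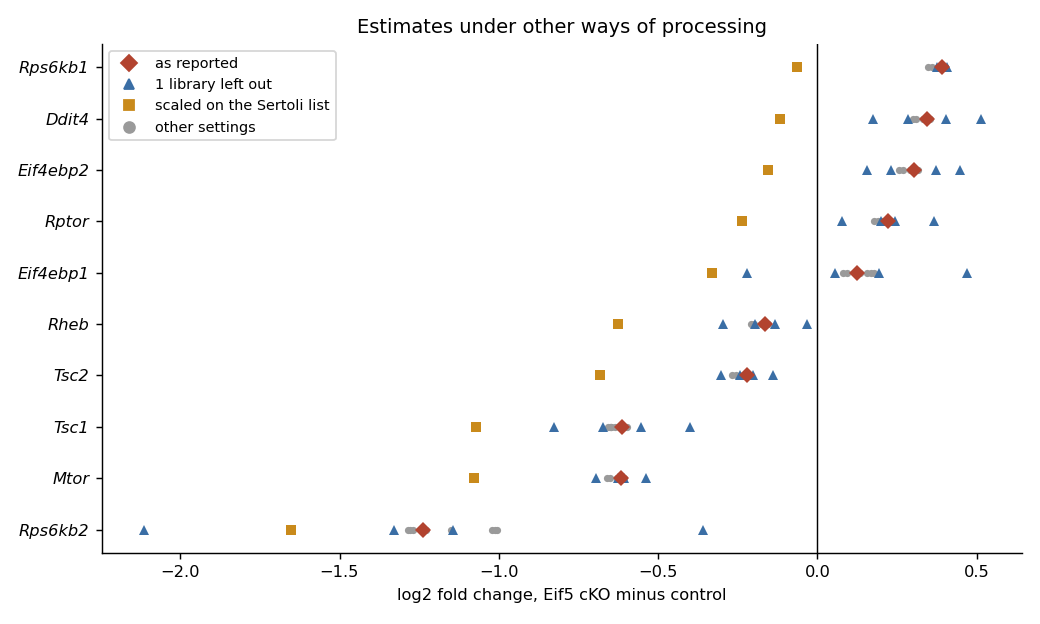
Estimated log2 fold change of Eif5 cKO minus control (horizontal axis) of each gene as reported (red diamonds), with 1 library left out (blue triangles), scaled on the Sertoli cell list (ochre squares) and under the other settings (grey circles). Scaling on the Sertoli list shifts every gene to the left, and leaving out a library moves Rps6kb2 between -2.11 and -0.36.

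Other genes of the pathway were described by list. The list of other mTOR complex subunits also held Tbc1d7, of the Tsc1-Tsc2 complex, and the assembly factors Tti1 and Telo2, which are not subunits. On this list 0 of 9 tested genes passed, with a median log2 fold change of -0.23 against 0.003 over all genes. The smallest p values were those of Rictor, the scaffold of mTORC2, with 166 and 210 in Eif5 cKO against 273 and 311 in control (log2 fold change -0.64, limma adjusted p = 0.309), and of Akt1s1, which encodes the mTORC1 inhibitor PRAS40, with 286 and 208 in Eif5 cKO against 161 and 160 in control (0.61, adjusted p = 0.365). Groups of this list did not overlap in 7 of 9 genes, 5 below and 2 above the controls, against backgrounds of 40.8%, 20.9% and 20%. Tti1 and Telo2 were among those below and Tbc1d7 among those above. Rictor, like Mtor, was below the controls in both Eif5 cKO libraries, and neither passed.

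In the lysosomal amino acid arm, which holds the Rag GTPases, the Ragulator, GATOR and folliculin complexes and the amino acid sensors, 0 of 30 genes passed and the median was -0.10. The Rag GTPase gene Rragc had values of 174 and 214 in Eif5 cKO, against 95.5 and 122 in control (log2 fold change 0.83, limma adjusted p = 0.193). Fnip1, which encodes a partner of folliculin, had 68.2 and 125 in Eif5 cKO, against 149 and 200 in control (-0.89, adjusted p = 0.204). Among 21 genes of growth factor and energy inputs 0 passed, with a median of 0.04. Pdpk1, the kinase that phosphorylates Akt and the S6 kinases, came nearest to the threshold, with 84.1 and 137 in Eif5 cKO against 197 and 242 in control (-1.02, adjusted p = 0.0823). Insr, the insulin receptor gene, had 168 and 204 in Eif5 cKO against 105 and 118 in control (0.72, adjusted p = 0.293).

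Downstream of the kinase, 0 of 11 tested translational effectors passed and the median was -0.07. Eif4a1, the helicase that unwinds mRNA leaders, had 22.7 and 33.2 in Eif5 cKO, against 39.2 and 81.5 in control (log2 fold change -1.02, limma adjusted p = 0.406). Eif4g3, a scaffold of the cap-binding complex, had 98.8 and 96.9 in Eif5 cKO, against 80.0 and 56.2 in control (0.54, adjusted p = 0.598). Eif4e, the target of the 4E-BP proteins, had 80.7 and 58.3 in Eif5 cKO, against 54.7 and 79.2 in control, so its groups overlapped (0.06, adjusted p = 0.974). Among 10 other substrates and regulators 0 passed, with a median of -0.02. Of these, Lpin1 (log2 fold change -0.62), a regulator of lipid synthesis, and Ddit4l (0.43), the paralog of Ddit4, had the smallest p (limma adjusted p = 0.600 and 0.617).

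At an unadjusted p under 0.05 (background 6.31% lower and 4.32% higher), the other complex subunits held 1 lower and 1 higher gene, the lysosomal arm 3 lower and 1 higher, the inputs 2 lower and 2 higher, the effectors 1 lower and 0 higher, and the other substrates 0. edgeR, DESeq2 and limma-voom called no gene of these lists. Groups did not overlap in 12 of 30 genes of the lysosomal arm and 9 of 21 inputs, against a background of 40.8%. For the effectors it was 4 of 11 genes, and for the other substrates 3 of 10. Without Eif5 cKO replicate 2, larger falls were fitted for Fnip1 (log2 fold change -1.32), Pdpk1 (-1.37) and Prkaa2 (-2.38), a catalytic subunit of AMP-activated kinase. That fit rests on 1 Eif5 cKO library and takes each gene's own spread from the controls alone. In that library Prkaa2 had 5 reads, against 51 and 24 in control. The Eif5 cKO library left out had 65 reads of Prkaa2. With all 4 libraries none of these genes passed. The list medians moved with the controls. Without control replicate 1 and without control replicate 2, they were 0.17 and -0.40 for the effectors, 0.22 and -0.09 for the inputs, and -0.22 and 0.07 for the lysosomal arm. The lysosomal median was also 0.05 without Eif5 cKO replicate 1 and -0.16 without Eif5 cKO replicate 2.

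**Figure D5:**
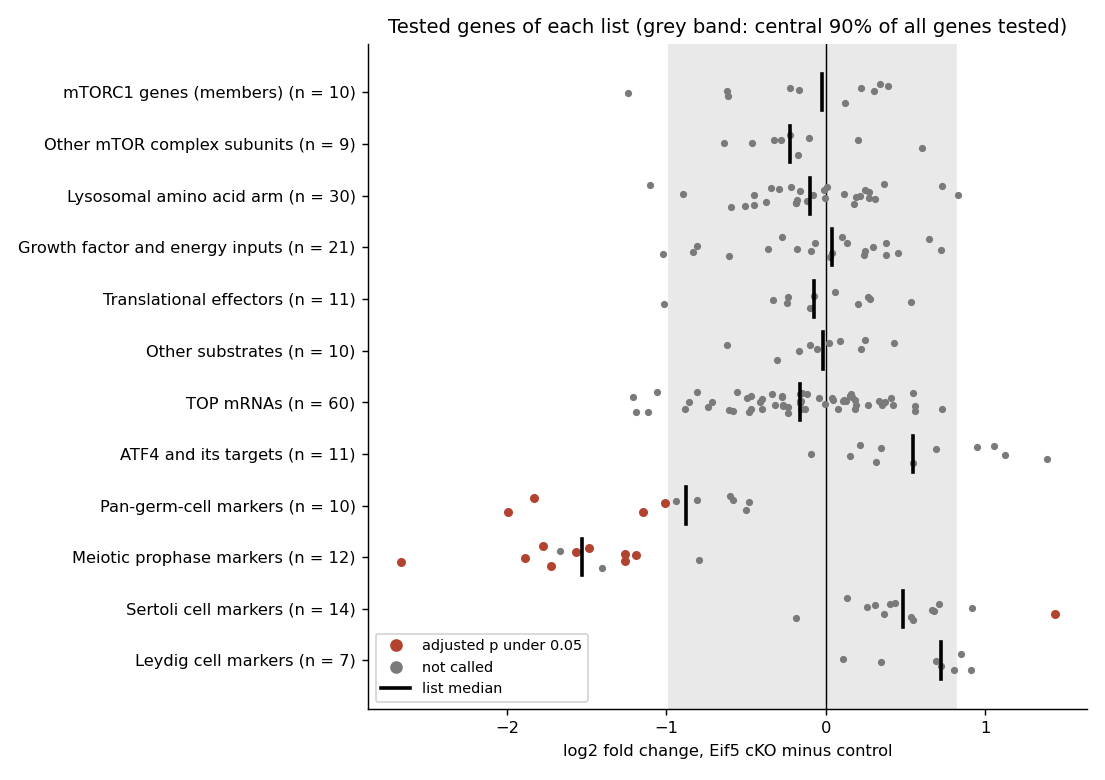
Log2 fold change of Eif5 cKO minus control (horizontal axis) for each tested gene of the mTORC1 lists and of cell type markers, with a black line at each list median, red points for genes past the threshold and a grey band for the central 90% of all genes tested. No gene of the mTORC1 lists is red, whereas 4 pan-germ-cell, 9 meiotic prophase and 1 Sertoli cell markers are.

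The mRNAs most sensitive to mTORC1 are the TOP mRNAs, which encode ribosomal proteins and elongation factors and begin with a C followed by a run of pyrimidines, the 5′ terminal oligopyrimidine. The annotated RefSeq starts (GRCm38.p6) are printed to show that feature and its absence in members of the pathway, with 20 bases from the annotated start and capitals for a C and the unbroken C or T run after it. Rps6 is the substrate of the S6 kinases, Rps10 and Rplp2 are the genes with such a start and the smallest p, and Mtor and Ddit4 are the members of lowest p in each direction.
Rps6 (chr4:86857348-86857367, minus strand): CTCTTTTTCgtgacgcctcc
Rps10 (chr17:27635225-27635244, minus strand): CTTCCTTTCCagcctccgcc
Rplp2 (chr7:141447651-141447670, plus strand): CTTTCgccgccggacgccgc
Mtor (chr4:148448582-148448601, plus strand): tccctggcctagaagacagc
Ddit4 (chr10:59951751-59951770, minus strand): ggttggcaccagttcgctca

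A C followed by at least 4 bases that were each C or T, read on the gene's strand from the annotated start, was found in 14 of 58 TOP list genes with a listed start (24.1%), in 0 of the 8 members with one, and in 813 of all 27025 genes with a listed start (3.01%). Annotated starts can differ from those used in testis by some bases, and Eif4ebp1 and Rps6kb2 were not matched. Of 60 tested TOP genes 0 passed, with a median log2 fold change of -0.16 against 0.003 over all genes, and 37 of the 60 had a negative sign. The TOP list median was -0.070 without Eif5 cKO replicate 2. Groups did not overlap in 20 of the 60 genes, against a background of 40.8%. The 10 tested genes with such a start had a median of -0.10 and the 29 others with a listed start one of -0.13. Eif3e, a subunit of initiation factor 3, had 116 and 199 in Eif5 cKO, against 251 and 304 in control (-0.86, limma adjusted p = 0.153). Rps10, a protein of the small ribosomal subunit, had 46.6 and 70.9 in Eif5 cKO, against 112 and 102 in control (-0.88, adjusted p = 0.293). Rps6 itself was listed with values of only 0.897 to 13.6 and was not tested, and ribosomal protein genes may share reads with near-identical copies. Of the TOP list 6 genes were lower and 0 higher at an unadjusted p under 0.05 (6 of 60, against 6.31% lower and 4.32% higher over all genes), and edgeR, DESeq2 and limma-voom called 0. Without Eif5 cKO replicate 2, larger falls were fitted for Eif3e (log2 fold change -1.25), Rpl23 (-1.43), Rpl26 (-2.27) and Rps24 (-1.42). That fit again rests on Eif5 cKO replicate 1 alone, with each gene's own spread taken from the controls. In the Eif5 cKO library left out, Rps24 had a value of 186, against 144 and 156 in control, and Rpl26 had 47.6, against 40.8 and 68.9 in control.

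Ddit4 and Eif4ebp1 are known targets of ATF4, the transcription factor of the integrated stress response, as is Sesn2, an amino acid sensor that inhibits mTORC1. Atf4 had values of 168 and 177 in Eif5 cKO, against 70.2 and 112 in control (log2 fold change 0.95, SE 0.29, limma adjusted p = 0.151). The ATF4 list had 0 of 11 tested genes past the threshold and a median of 0.55. That median was 0.31 over genes with at least 50 reads in 2 libraries. Without Eif5 cKO replicate 1 or 2 it was 0.47 and 0.63, and without control replicate 1 or 2 it was 0.58 and 0.42. Ddit3 had 44.3 and 61.9 in Eif5 cKO, against 25.3 and 21.8 in control (1.12, limma adjusted p = 0.342). Beside these, the log2 fold changes were 0.34 for Ddit4, 0.12 for Eif4ebp1 and 0.22 for Sesn2, and Sesn2 had 165 and 144 in Eif5 cKO, against 144 and 122 in control. None of the 3 passed. Groups of the ATF4 list did not overlap in 6 of 11 genes, all 6 above the controls, against backgrounds of 40.8% and 20%. On the ATF4 list 3 of 11 genes were higher and 0 lower at an unadjusted p under 0.05 (4.32% higher and 6.31% lower over all genes), 0 passed by edgeR, DESeq2 or limma-voom, and the list median was 0.10 with scaling on the Sertoli cell list, where that of all genes was -0.45. Positive medians were not particular to this list. As reported, they were 0.72 for Leydig, 0.51 for erythroid, 0.48 for Sertoli, 0.43 for macrophage and 0.07 for endothelial markers. Those of the meiotic, pan-germ-cell and peritubular myoid lists were -1.53, -0.87 and -0.21. At an unadjusted limma p under 0.05, 5 of 7 Leydig and 7 of 14 Sertoli cell markers were higher.

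Across the 4 libraries, 393 of 9475 genes with a mean CPM of at least 10 followed Mtor with a Pearson correlation of 0.95 or more of log2 values. Among the closest were Cdr2l and Rrm2, both at 1.000 when rounded, with log2 fold changes of -0.35 and -1.34. With 4 points that share libraries and scaling, such a correlation is a description of the order of these libraries.

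Some annotated genes overlap the members in RefSeq. Angptl7 lies within Mtor, and Pkd1 and Rnft1 overlap the ends of Tsc2 and Rps6kb1. The sources used here do not say whether reads were counted by strand, which leaves reads in those stretches uncertain.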

How the data were processed

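Ribosome footprints of 4 testis libraries were read from the deposited table. Bowtie2, STAR, featureCounts and the build GRCm38 appear, with no version, in the submitters' processing notes. The deposited columns are called raw counts, but their values are a normalized signal: every value (100%) was a whole multiple of 1 value per library at a relative tolerance of 1e-06, which gave the recovered reads. limma 3.58.1 (R 4.3.3) with an intensity trend was fitted to log2(value + 1), which understates changes of low genes, with group as the only term. Genes passed the filterByExpr default of edgeR 4.0.16 (minimum count 10) on recovered reads, which left 12095 genes. Tests were two-sided, adjusted by Benjamini-Hochberg over all genes, and called at 0.05, with 2 residual and 37.0 prior degrees of freedom. Every row had a gene name, and every column was matched to a sample.

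The members and lists were chosen with earlier results of these data known. All members were named, with Eif5, the 2 genes of smallest p in each pathway list, and the 3 genes most correlated with the member of smallest p (of which 1 is not reported here); Eif4e, Sesn2 and Rps6 were named for their roles, and Prkaa2, Rpl23, Rpl26 and Rps24 after their values were seen. Castor1, Castor2 and Bmt2 were read under older symbols. Coding lengths were not used, so the planned footprints per codon were replaced by ratios of values. Alternatives were edgeR with TMM factors, DESeq2 1.42.0, limma-voom, other scalings, pseudocounts and filters, each library left out, and a replicate block. The fits were tested on simulated reads. Same-numbered libraries did not deviate together (correlation -0.05).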

Additional observations from a re-analysis of the deposited data

How the results depend on the processing

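No member was called under any of the 17 alternatives that gave it an adjusted p (Rps6kb2 had no estimate with the filter of 50 reads and an adjusted p of NA in DESeq2). In the fit as reported, 2 members were past an unadjusted p under 0.05 and 0 past an adjusted p under 0.1. At the unadjusted threshold the count was also 2 by edgeR and limma-voom. With all 4 libraries it was 1 with DESeq2, upper-quartile factors, a pseudocount of 4 or a replicate block, and 3 with scaling on the Sertoli list. Mtor and Tsc1 were no longer past that threshold without control replicate 1. Their log2 fold changes were then -0.54 and -0.40, against -0.62 and -0.61 as reported. Of 169 alternative estimates over the 10 members, 163 kept their sign. Under scaling on the Sertoli list the sign turned for Rptor (-0.24), Rps6kb1 (-0.066), Eif4ebp1 (-0.33), Eif4ebp2 (-0.16) and Ddit4 (-0.12), by the construction of that scale, which moves all genes down, and 5 members lay outside the control values in place of 9. Eif4ebp1 also turned without Eif5 cKO replicate 2 (-0.22, with 0.47 without Eif5 cKO replicate 1). Over all genes the count of calls was 82, and 92, 67 and 100 by edgeR, DESeq2 and limma-voom. It was 37 at an adjusted p under 0.01 and 149 under 0.1. Leaving out a library gave 10 to 346 calls: 127 without Eif5 cKO replicate 1, 346 without Eif5 cKO replicate 2, 10 without control replicate 1 and 20 without control replicate 2, and the cause was not tested. With a replicate block 100 genes and 0 members were called, and the numbers do not mark a shared litter or day. Depth limits Rps6kb2 most, with 5 to 32 reads a library, and the filter of 50 reads in 2 libraries removed it.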
